A study of Sus scrofa with 8 samples.

Results

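The muscle acetylcholine receptor is the ion channel through which a motor nerve excites a skeletal muscle fibre. Its 5 known subunit genes and the gene of the kinase that gathers the receptor under the nerve were followed in single-cell RNA sequencing of embryonic pig muscle. The 6 genes, CHRNA1, CHRNB1, CHRND, CHRNG, CHRNE and MUSK, were taken by symbol from the 21301 genes of the count matrices, and all 6 had a row in each of the 8 matrices.

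The receptor is a ring of subunits. CHRNA1 encodes the alpha subunit, which carries most of each acetylcholine binding site, CHRNB1 the beta subunit and CHRND the delta subunit. CHRNG encodes the gamma subunit of the fetal receptor, which the epsilon subunit, encoded by CHRNE, replaces as synapses mature. MUSK encodes a receptor tyrosine kinase that responds to agrin from the nerve, through the co-receptor LRP4 and the adaptor DOK7, and drives clustering of the receptor by rapsyn. In muscle, receptor genes are known as targets of the myogenic factors MYOD1 and MYOG, which bind the DNA motif called the E-box, CANNTG.

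The samples were somites of Sus scrofa at embryonic days E16, E18 and E21, and myotome, the part of the somite that gives rise to skeletal muscle, at E28. Library names give the stage and the breed, with ZZ for Tibetan pigs and DZ for Duroc-Tibetan crossbreds. Each of the 4 stages of each of the 2 breeds was measured in 1 library, made from a pool of 5 embryos of 1 sow with no treatment. The spread between pools of the same stage and breed could thus not be measured. The p-values rest on how values vary across libraries of different stage or breed. Tissue cannot be told apart from stage at E28, nor Cell Ranger version from stage at E16, since both E16 libraries were counted with version 3.1.0 and the other 6 with 3.0.2.

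Of 90688 barcodes, 74147 were kept as cells, with 39887814 to 57796312 UMIs per library and a median of 3405 to 6192 UMIs per cell. A UMI, or unique molecular identifier, marks 1 captured RNA molecule. In the E16-ZZ library 39.2% of barcodes exceeded the limit on mitochondrial UMIs, against 1.05% to 9.15% in the others. Among the barcode sequences kept, 0.92% occurred in more than 1 library.

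Cells were sorted by marker genes, none of which is a receptor gene or MUSK. Myocytes held at least 2 UMIs of MYH3, the embryonic myosin heavy chain, and at least 1 of MYMK, which fuses myoblasts. Committed myoblasts held MYOD1 or MYOG with at most 1 UMI of MYH3, and MYF5+ progenitors held MYF5 without MYOD1, MYOG or MYMK. This gave 513 myocytes, 2371 committed myoblasts and 2322 MYF5+ progenitors. Of the myocytes, 67 held the lowest MYH3 count allowed and 30 a single MYMK UMI, and 256 cells with MYMK missed the gate at 1 UMI of MYH3. No myocyte was found at E16, and from E18-ZZ to E28-DZ the 6 later libraries held 30, 55, 86, 89, 100 and 153. Levels are given as CPM, the UMIs of a gene per 1000000 UMIs of the summed cells. The summed level of 8 contractile genes outside the gate was 23267 to 75358 CPM in myocytes and 131 to 635 in other cells. Other cells here are those outside the muscle gates and the gate of PAX3+ progenitors, without the 2938 cells that met the markers of more than 1 class and 95 with at least 2 UMIs of MYH3 in no gate. The cells of more than 1 class held 4.56% of the CHRNA1 and 9.79% of the MUSK UMIs. PAX7, a progenitor gene, had a mean of 5.81 CPM in myocytes and 119 in MYF5+ progenitors. From the muscle and PAX3+ progenitor gates 1037 cells with markers of another class had been removed, 20 of them from the myocyte gate, while other cells include those chosen by these markers, so the sums that follow are in part set by the gates. In myocytes the summed cardiac markers were at 0 to 3.5 CPM and the fibroblast markers at 24.0 to 80.5 against 162 to 2609 in other cells. The sclerotome, endothelial, crest or glia and erythroid sums in myocytes lay below those in other cells, as the fibroblast sums did, and the remaining sums overlapped them, among them the cardiac one at 1.0 to 13.5 in other cells. Chondrogenic markers were at 20.9 to 242.8 CPM in myocytes against 95.9 to 785.1, neuron markers at 3.2 to 155.3 against 76.4 to 2522.7, and epithelial markers at 0 to 60.6 against 2.1 to 81.8. HAPLN1 of the chondrogenic list (64.4 against 29.6 CPM), DCX of the neuron list (46.7 against 27.1) and CLDN6 of the epithelial list (17.0 against 15.2) had higher means in myocytes than in other cells. So did, at low levels, CDH1 of the epithelial list (0.77 against 0.67) and FOXC2 of the sclerotome list (0.53 against 0.31). The part of other cell types in the myocyte values was not tested.

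The 6 genes lie on 3 chromosomes of Sscrofa11.1 in the RefSeq annotation. CHRNA1 lies on the minus strand at chr15:80673072-80692256. CHRND (chr15:133040310-133047839) and CHRNG (chr15:133051668-133059935) follow each other on the plus strand of the same chromosome, 3828 bases apart. CHRNB1 (chr12:52749422-52774642, plus strand) overlaps the oppositely transcribed ZBTB4 over 14731 bases. CHRNE (chr12:51999504-52016592, plus strand) overlaps the oppositely transcribed MINK1 over 296 bases and is annotated there as a long non-coding RNA. MUSK (chr1:251650151-251758538, plus strand) lies wholly within an oppositely transcribed long non-coding RNA. How the counting assigned reads in these overlaps was not examined, so CHRNB1, CHRNE and MUSK carry that uncertainty.

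The 150 bases before the RefSeq start of the 3 members with more than 100 UMIs are shown because most UMIs of CHRNA1 and MUSK, and few of CHRNB1, came from the muscle gates. Each is written 5′ to 3′ on the gene's strand, with E-boxes in capitals.

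CHRNA1, chr15:80692257-80692406, minus strand: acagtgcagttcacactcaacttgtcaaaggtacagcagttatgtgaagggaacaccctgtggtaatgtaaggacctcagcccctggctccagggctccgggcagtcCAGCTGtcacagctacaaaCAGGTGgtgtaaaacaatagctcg
MUSK, chr1:251650001-251650150, plus strand: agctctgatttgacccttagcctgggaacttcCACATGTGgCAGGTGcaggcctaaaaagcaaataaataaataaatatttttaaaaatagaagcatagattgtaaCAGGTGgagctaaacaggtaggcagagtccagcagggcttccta
CHRNB1, chr12:52749272-52749421, plus strand: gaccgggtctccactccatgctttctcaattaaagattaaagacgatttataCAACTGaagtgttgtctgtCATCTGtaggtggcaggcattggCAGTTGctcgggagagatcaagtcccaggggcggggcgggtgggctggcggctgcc

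The motif reads the same on both strands, and neighbouring matches may overlap, as the first pair does in MUSK. The 250 bases before the start held 3 E-boxes in CHRNA1, 5 in MUSK, 3 in CHRNB1, 2 in CHRND, 4 in CHRNG and 3 in CHRNE. Of 19556 promoters of that length, 61.9% held at least 1, 28.4% at least 2, 10.3% at least 3 and 3.18% at least 4. The form CAGGTG or its reverse complement CACCTG, found in 19.6% of promoters, was in the windows of 5 of the 6 members, CHRNA1, MUSK, CHRND, CHRNG and CHRNE, and not in that of CHRNB1. The form CAGCTG, found in 13.6% of promoters, was in 3 of the 6, CHRNA1, CHRNG and MUSK. The ETS motif CCGGAA or TTCCGG, also in 13.6% of promoters, was in CHRND and CHRNE. A match is a description of letters and not of binding.

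Among the members with more than 100 UMIs, the alpha subunit gene had the highest share of its molecules in muscle cells. In the 6 libraries from E18-ZZ to E28-DZ, CHRNA1 stood at 253, 357, 537, 402, 458 and 704 CPM in the summed myocytes, with a mean of 452 ± 156 (SD, n = 6). In other cells it ranged over the 8 libraries from 0.027 to 3.85 CPM, so the groups did not overlap. Myocytes made up 0.69% of cells and held 53.9% of the 4079 CHRNA1 UMIs, and the 3 muscle gates together, 7.02% of cells, held 87.5%. No CHRNA1 UMI was found in the 291 cells of the cardiac gate, which share sarcomere genes with skeletal muscle, nor in the sclerotome gate, which marks cells that form vertebrae and ribs. All the cardiac cells came from E16 and E18, with 57 in E16-ZZ and 173 in E16-DZ, where no myocyte was found. Cell type and early stage can thus not be told apart for the cardiac gate.

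MUSK, too, was higher in every myocyte sum than in other cells, at lower counts. It stood at 34.7, 41.4, 189, 129, 157 and 129 CPM in myocytes (mean 113 ± 62.4, SD, n = 6) and at 0 to 1.40 in other cells. Myocytes held 45.4% of its 1226 UMIs and the 3 muscle gates 77.7%. No MUSK UMI was found in the cardiac, PAX3+ progenitor or endothelial gates, of which the cardiac gate held cells of E16 and E18 only.

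CHRNB1, the beta subunit gene, was counted in every gate. Its myocyte levels of 48.6, 47.8, 74.8, 54.2, 91.3 and 85.3 CPM (mean 67.0 ± 19.3, SD, n = 6) overlapped the 10.7 to 80.2 of other cells. Of its 9311 UMIs, the 3 muscle gates held 12.7%, the fibroblast gate 19.1% and cells in no gate 46.4%. It was at 15.6 to 41.4 CPM in cardiac cells, 3.80 to 26.9 in neurons and 8.03 to 54.3 in endothelial cells. The lowest gate mean was that of erythroid cells, at 2.58. In cells thinned to 1500 UMIs each, CHRNB1 was found in 0.443% of 902 erythroid cells, with median depths of 3752 to 12951 UMIs. The part of free RNA in the low levels was not tested.

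The gates were ordered by their mean level. For CHRNA1 myocytes were followed by committed myoblasts at 114 ± 28.3 CPM (SD, n = 5) and MYF5+ progenitors at 5.82 ± 5.68 (n = 8), and the ranges of these neighbours did not overlap. PAX3+ progenitors followed at 1.99 ± 2.98 (n = 6), chondrogenic cells at 1.39 ± 1.72 (n = 5) and neurons at 1.06 ± 1.55 (n = 6), which overlapped each other, and the remaining gates with more than 1 sum lay at 0 to 0.93. The PAX3+ progenitor, chondrogenic and neuron gates held only 5, 6 and 5 CHRNA1 UMIs, so their order is not interpreted. For MUSK committed myoblasts were at 17.9 ± 7.64 (n = 5), below every myocyte sum, and MYF5+ progenitors at 7.95 ± 8.63 (n = 8) overlapped them. The next gates were sclerotome at 0.905 ± 1.66 (n = 6) and fibroblasts at 0.664 ± 0.786 (n = 7). They held only 2 and 29 MUSK UMIs, so their order is not interpreted either.

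For CHRNB1 every gate overlapped its neighbour in the order. After myocytes, at 67.0 on average over stages, came sclerotome at 44.3 ± 53.8 CPM (SD, n = 6), committed myoblasts at 32.2 ± 18.6 (n = 5), fibroblasts at 31.2 ± 28.0 (n = 7), cardiac cells at 30.9 ± 13.5 (n = 3), chondrogenic cells at 27.2 ± 23.5 (n = 5) and endothelial cells at 25.8 ± 18.1 (n = 8). MYF5+ progenitors at 20.4 ± 14.2 (n = 8), neurons at 18.6 ± 7.78 (n = 6) and epithelial cells at 14.8 ± 4.47 (n = 5) came next. PAX3+ progenitors, neural progenitors and neural crest or glia lay between 10.5 and 12.6, and erythroid cells were lowest at 2.58 ± 4.28 (n = 8). The gates did not all have a sum at every stage, so these means rest on different stages. At E28 sclerotome cells, at 103 and 123 CPM from 21 and 30 UMIs, stood above myocytes, at 91.3 and 85.3, in both libraries. This order was not tested, and the CPM are unscaled, while 8 contractile genes alone took 23267 to 75358 CPM of the myocyte sums.

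**Figure D1:**
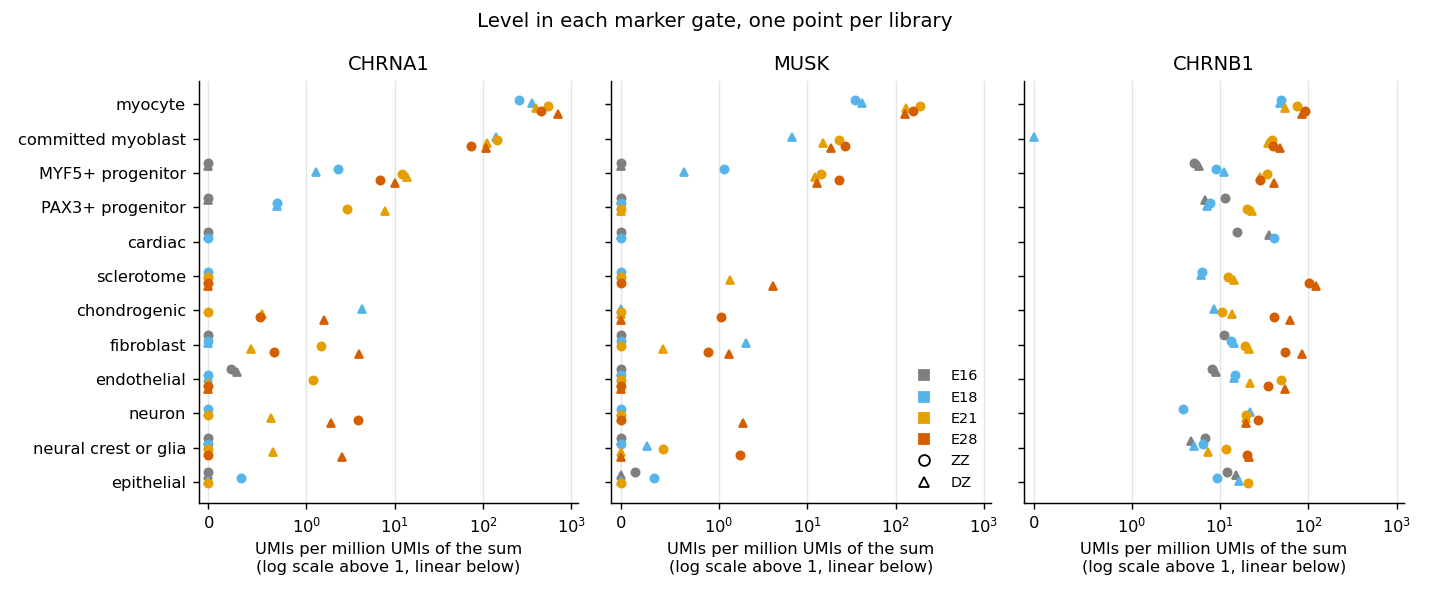
Level of CHRNA1, MUSK and CHRNB1 in CPM of the summed cells (horizontal axes, logarithmic above 1 and linear below) in each cell gate (vertical axis), with 1 point per library coloured by stage and shaped by breed. CHRNA1 and MUSK are highest in myocytes (253 to 704 and 34.7 to 189), while CHRNB1 in myocytes (47.8 to 91.3) lies within reach of several non-muscle gates.

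In the edgeR fit of myocytes against other cells, with the library as a block, CHRNA1 was higher in myocytes by 8.88 ± 0.27 on the log2 scale (SE, adjusted p = 1.6e-10), MUSK by 7.72 ± 0.31 (adjusted p = 1.2e-09), CHRNE by 2.67 ± 0.75 (adjusted p = 0.016) and CHRNB1 by 1.70 ± 0.26 (adjusted p = 0.00022). Over all 13972 genes tested 14.5% were higher. The members called are not counted against this share, because the filter on low counts decided which of them were tested. The median of all genes in this fit was −0.27, and the values are relative to the scaling that gave it. The CHRNE value rests on 10 UMIs in myocytes, of which E28-DZ held 9. Without E28-DZ, or without the library block, CHRNE did not pass the filter on low counts. CHRND and CHRNG were too low to be tested.

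The remaining subunits were nearly or wholly undetected. No UMI of CHRND was counted among 383119690, nor among the 4239372 UMIs of the myocytes, which allows at most 0.708 CPM there. CHRNG had 5 UMIs, 4 in MYOG+ myoblasts and 1 in E28-DZ myocytes, and none before E21. CHRNE had 66 UMIs, of which 42 came from E28-DZ and 10 from E28-ZZ. Myocytes held 10 of them, 9 in E28-DZ (6.56 CPM) and 1 in E28-ZZ (1.34 CPM), and the fibroblast gate held 18. In myocytes CHRNE stood at 0 in all 4 libraries of E18 and E21. These limits cover counting error only. A 3′ tag count of a gene depends on where its annotated transcripts end, and levels are not compared between genes.

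The members were then followed over the 2 steps of differentiation, from MYF5+ progenitors to committed myoblasts and on to myocytes. In MYF5+ progenitors CHRNA1 was at 0 in both E16 libraries, 2.28 (ZZ) and 1.29 (DZ) at E18, 12.2 and 13.9 by E21, then 6.77 and 10.1 by E28. In committed myoblasts it was at 139 in E18-DZ, 142 and 111 by E21, then 72.4 and 107 by E28, above every progenitor sum. The fit gave 3.66 ± 0.23 on the log2 scale (adjusted p = 9.3e-10). MUSK rose by 0.66 ± 0.19 (adjusted p = 0.030), from 0 to 22.6 CPM in progenitors to 6.63 to 26.5 in myoblasts, ranges that overlapped. This call was lost with DESeq2 (adjusted p = 0.12) and without E21-ZZ (0.13), E21-DZ (0.074) or E28-DZ (0.16). It was also lost without the library block (0.43), at a mitochondrial limit of 5% (0.090) and with a looser gate (0.070), 7 of 16 alternatives in all. CHRNB1 differed by 0.43 ± 0.16 (adjusted p = 0.10). Thus 2 of 3 members tested were higher in myoblasts, and 6.38% of 9945 genes were. The count is not read against this share, because the filter on low counts decided which members were tested.

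Between committed myoblasts and myocytes all 3 rose. MUSK was higher in myocytes by 3.19 ± 0.16 (adjusted p = 5.5e-12), with every myocyte sum above every myoblast sum. CHRNA1 was higher by 2.57 ± 0.18 (adjusted p = 1.0e-09), again without overlap. CHRNB1 was higher by 1.32 ± 0.16 (adjusted p = 2.2e-06), and its lowest myocyte sum of 47.8 was near the highest myoblast sum of 48.0. In this comparison 19.7% of 9945 genes were higher, and here too the members are not counted against the share.

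**Figure D2:**
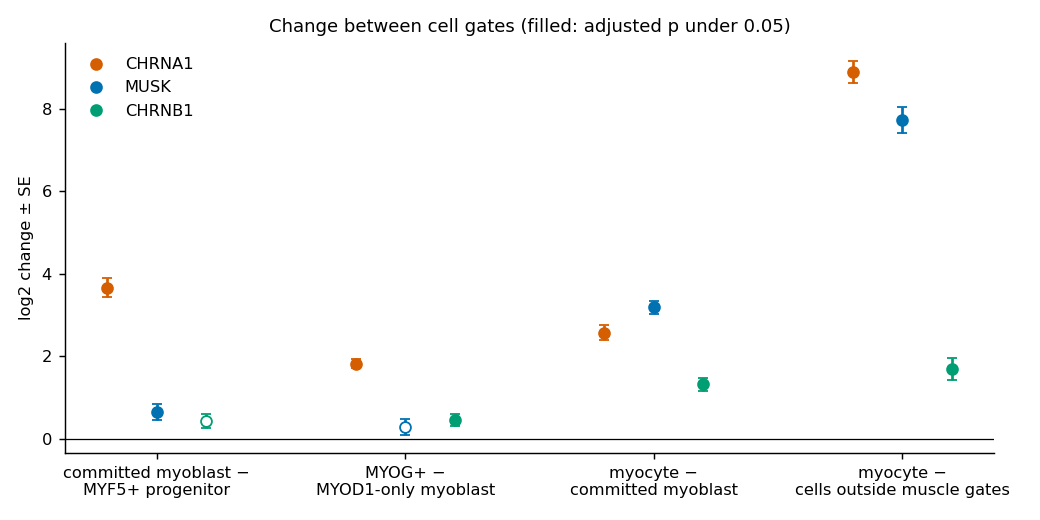
log2 change ± SE (vertical axis) of CHRNA1, MUSK and CHRNB1 in 4 comparisons (horizontal axis) from edgeR, with filled points for an adjusted p under 0.05 and open points otherwise. CHRNA1 rose by 3.66 at the step to myoblasts and by 2.57 at the step to myocytes, whereas MUSK rose by 0.66 and then by 3.19.

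Within committed myoblasts, CHRNA1 was higher in the cells with MYOG, the factor of terminal differentiation. This split was chosen after values had been seen. CHRNA1 stood at 178 and 175 CPM at E21 and 116 and 172 at E28 in myoblasts with a UMI of MYOG, and at 70.1, 45.8, 42.7 and 47.4 in those with MYOD1 alone, without overlap. The difference was 1.83 ± 0.11 (adjusted p = 7.4e-12). CHRNB1 was higher by 0.46 ± 0.14 (adjusted p = 0.017), a call lost with DESeq2 (0.27), without E28-ZZ (0.057) or E28-DZ (0.18), and without the library block (0.20). MUSK stood at 23.6, 16.8, 25.0 and 20.9 in MYOG+ and at 21.0, 12.9, 27.5 and 16.5 in MYOD1-only myoblasts, a difference of 0.29 ± 0.19 (adjusted p = 0.31). Among all 8733 genes tested 11.4% were higher in the MYOG+ cells.

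Per cell, the members were compared after each cell had been thinned to 1500 UMIs. CHRNA1 was found in 49.6% of 506 thinned myocytes (95% Clopper-Pearson interval 45.2% to 54.1%), 12.6% of committed myoblasts and 1.39% of MYF5+ progenitors. MUSK was found in 15.4% (12.4% to 18.9%), 2.40% and 1.70%, and CHRNB1 in 12.3% (9.53% to 15.4%), 6.30% and 4.22%. Without thinning the myocyte shares were 86.4%, 48.7% and 40.4%. In endothelial cells, taken as a type outside muscle, CHRNA1 was found in 0.048% and MUSK in 0 of 2075 thinned cells, which allows a share of up to 0.145% with a UMI at this depth and sets no limit on cells that express the gene. CHRNB1 was found in 2.31% of the endothelial cells, and in 0.948% to 11.5% by library. Median depth before thinning was 5854 to 9986 UMIs in myocytes and 5913 to 9797 in endothelial cells, and 7 of the 513 myocytes were too shallow. In the fibroblast gate CHRNA1 was found in 0.25%, MUSK in 0.158% and CHRNB1 in 7.94% of 7596 thinned cells. In cells of no gate CHRNA1 was found in 0.185% and MUSK in 0.099%, so the endothelial shares are among the lower ones outside muscle.

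In thinned myocytes, MUSK was found in 14.7% of the 251 cells with CHRNA1 and in 16.1% of the 255 without it. Both were found in 37 cells and neither in 214. The shares with and without CHRNA1 were 12.5% and 26.1% in E21-ZZ and 12.2% and 25.9% in E28-ZZ. They were 23.8% and 17.8% in E21-DZ and 16.7% and 10.9% in E28-DZ, so the order of the shares differed between libraries. Each of these shares rests on 5 to 16 cells with MUSK. At E18, MUSK was found in 0 of 30 thinned myocytes in E18-ZZ and in 1 of 53 in E18-DZ, a cell with CHRNA1. Cells of a library share its depth and its pool of embryos, so no test was made.

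**Figure D3:**
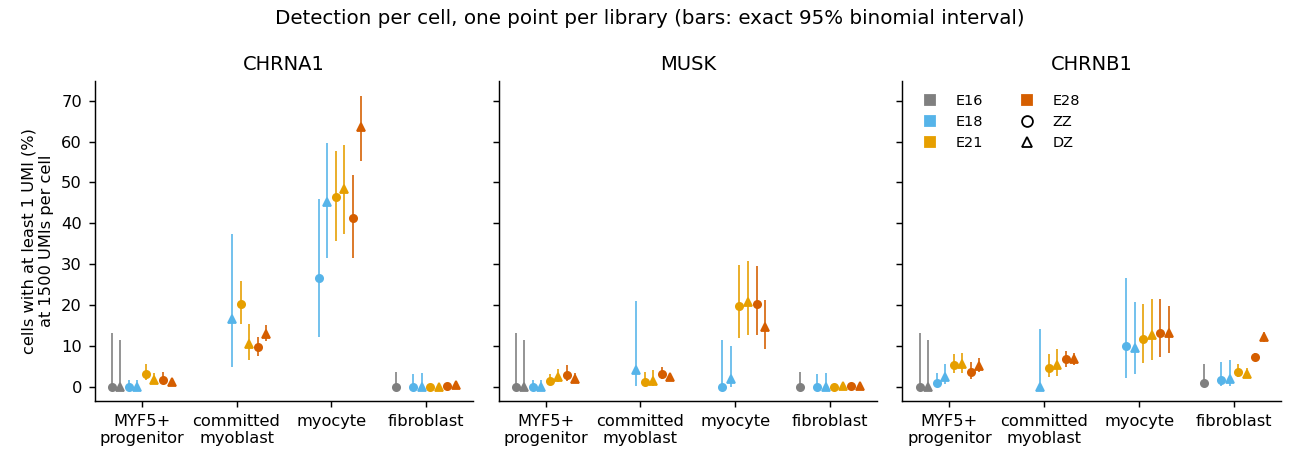
Percentage of cells, thinned to 1500 UMIs, with at least 1 UMI of CHRNA1, MUSK and CHRNB1 (vertical axis) in 4 gates (horizontal axis), with 1 point per library coloured by stage and shaped by breed and bars for its 95% Clopper-Pearson interval. CHRNA1 lies at 26.7% to 63.6% in myocytes and MUSK at 0% to 20.7%, while CHRNB1 in E28-DZ fibroblasts, at 12.1%, lies within its myocyte shares of 9.43% to 13.2%.

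With stage, MUSK in myocytes changed between E18 and E21. The E18 sums of 34.7 and 41.4 CPM lay below every later sum, which ranged from 129 to 189. The change from E18 to E21 was 2.24 ± 0.32 on the log2 scale (adjusted p = 5.1e-07). CHRNA1 was higher at E21 by 0.85 ± 0.23 (adjusted p = 0.0080), and this call was lost with DESeq2 (adjusted p = 0.080) and without E18-ZZ (0.40), E18-DZ (0.092) or E21-ZZ (0.21). CHRNB1 differed by 0.62 ± 0.34 (adjusted p = 0.26). Under a mitochondrial limit of 5% only 1 of the 30 E18-ZZ myocytes and 17 of the 55 E18-DZ myocytes remained, against 58 of 86 and 61 of 89 at E21, so E18 could not be tested under that limit, and the part of RNA quality in these changes was not tested. So 2 of the 3 members tested were higher, and 7.41% of 6800 genes were. The members are not counted against this share, because the filter on low counts decided which of them were tested. From E21 to E28 no member passed the test, with 0.18 ± 0.21 for CHRNA1, −0.24 ± 0.22 for MUSK and 0.37 ± 0.25 for CHRNB1, where 3.76% of genes changed in either direction.

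In whole libraries the 3 members tested rose from the 4 early (E16 and E18) to the 4 late (E21 and E28) libraries. CHRNA1 stood at 0.025, 0.139, 1.80 and 3.63 CPM in the early libraries and at 14.6, 12.8, 16.8 and 43.2 in the late ones. MUSK stood at 0.075, 0, 0.450 and 0.529, then at 5.00, 4.34, 8.00 and 9.63. CHRNB1 stood at 11.4, 11.3, 11.9 and 10.96, then at 20.9, 19.4, 48.9 and 71.8. No late library overlapped an early one for any of the 3. The share of all genes that separate these libraries likewise was not determined, so this is a description only.

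The fits gave 4.51 ± 0.92 for MUSK (adjusted p = 0.0094), 3.84 ± 1.04 for CHRNA1 (0.025) and 1.61 ± 0.42 for CHRNB1 (0.021), where 16.8% of 14684 genes were higher. Without both E28 libraries MUSK (4.00, adjusted p = 0.052) and CHRNA1 (3.28, 0.12) were not called, and CHRNB1 was called at 0.65. CHRNB1 lost its call without E16-DZ (0.062), E18-DZ (0.051), E28-ZZ (0.068) or both E16 libraries (0.13), and CHRNA1 without E28-ZZ (0.052) or E28-DZ (0.073). The share of cells in the myocyte gate rose over the same libraries, from 0.227% ± 0.283 to 1.05% ± 0.245 (SD, n = 4 each, exact two-sided permutation p = 0.0286, the smallest that the design allows). Without E28-DZ the difference was 0.707 percentage points (exact permutation p = 0.0571). Committed myoblasts, which held 31.0% of the CHRNA1 UMIs, numbered 1, 5, 19 and 24 in the early libraries. In the late libraries they numbered 237, 210, 689 and 1186. Fewer muscle cells and less RNA per cell cannot be told apart in whole libraries.

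**Figure D4:**
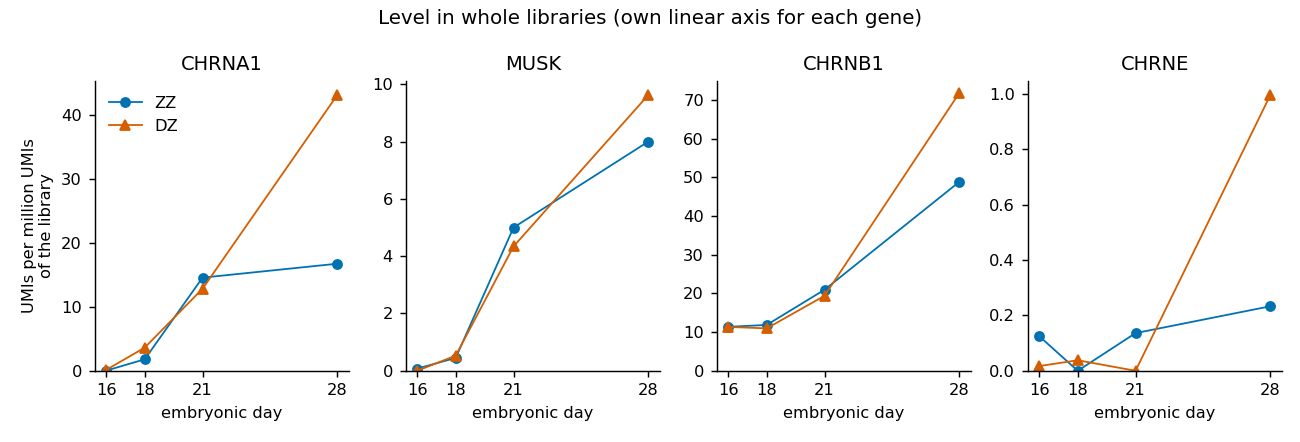
Level of CHRNA1, MUSK, CHRNB1 and CHRNE in CPM of the whole library (vertical axes) by embryonic day (horizontal axes), with a line for ZZ and a line for DZ and 1 library per point. CHRNA1 and MUSK are near 0 at E16 and reach 16.8 and 43.2, and 8.00 and 9.63, at E28, while CHRNB1 starts at 11.4 and 11.3 and reaches 48.9 and 71.8, and CHRNE reaches 0.233 and 0.996.

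CHRNB1 also rose outside the muscle gates. Other cells had 11.4 (ZZ) and 11.5 CPM (DZ) of it at E16, then 11.9 and 10.7 at E18, 18.5 and 17.7 by E21, and 53.1 and 80.2 by E28. The E28 sums were above every sum of the earlier stages. From E21 to E28 the change was 1.82 ± 0.17 (adjusted p = 0.0042), where 5.56% of 14951 genes were higher. In the fibroblast gate CHRNB1 went from 19.1 and 21.4 at E21 to 54.3 and 85.1 at E28, a change of 1.68 ± 0.20 (adjusted p = 0.0011), where 5.19% of 11438 genes were higher. In the sclerotome gate it stood at 12.5 and 14.5 at E21, and at 103 and 123 at E28 from 21 and 30 UMIs. In neural crest and glial cells it stood at 11.6 and 7.28, then at 20.5 and 21.6. E28 is the myotome and E21 the somite, so stage and tissue cannot be told apart here.

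The ratio of CHRNB1 in myocytes to other cells was 4.07, 4.46, 4.05 and 3.06 in the E18 and E21 libraries, and 1.72 and 1.06 at E28. The difference of myocytes from other cells was smaller at E28 than at E18 and E21 by 1.46 ± 0.31 on the log2 scale (adjusted p = 0.0050), where 2.26% of 13972 genes changed in that direction. Without E28-ZZ the value was −1.67 (adjusted p = 0.11) and without E28-DZ −1.16 (0.42). For CHRNA1 the same term was −0.61 ± 0.33 (adjusted p = 0.44) and for MUSK −0.85 ± 0.41 (0.36). The interaction and both E28 comparisons outside muscle were added after values had been seen.

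**Figure D5:**
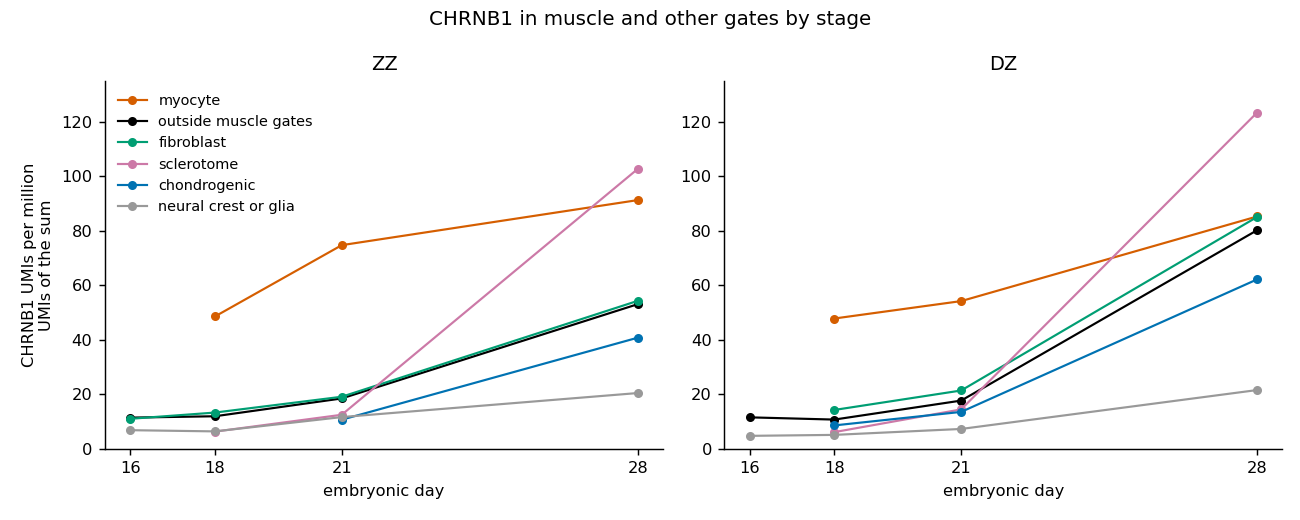
CHRNB1 in CPM of the summed cells (vertical axes) by embryonic day (horizontal axes), for ZZ and DZ separately, with a line for each cell gate. In ZZ myocytes rise from 48.6 to 91.3 while other cells rise from 11.9 at E18 to 53.1 at E28, and in DZ both end near each other, at 85.3 and 80.2.

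Between the breeds no member passed the test. In myocytes DZ against ZZ gave 0.26 ± 0.18 for CHRNA1, −0.28 ± 0.21 for MUSK and −0.17 ± 0.23 for CHRNB1, with adjusted p from 0.96 to 1.00, where 0.397% of 6800 genes were called. In whole libraries CHRNA1 differed by 0.77 ± 0.27 (adjusted p = 0.79). There edgeR called 0 of 15122 genes (percent called 0), with 927 at an unadjusted p under 0.05, and DESeq2 called 56.

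The partners of the receptor at the synapse were described from a list of 24 genes, of which 21 had a row by symbol. Of the 21 tested, 10 were higher and 5 lower in myocytes than in other cells, with a median log2 change of 0.64 beside −0.27 for all genes. Over all genes tested 14.5% were higher and 24.5% lower. Of 18 tested against committed myoblasts, 10 were higher and 2 lower (median 0.47 beside −0.04), where 19.7% of all genes were higher and 18.8% lower. At the step from MYF5+ progenitors 3 were higher and 3 lower, where 6.38% of all genes were higher and 4.14% lower. The list was chosen with earlier results of these data known. DOK7, LAMB2 and NRG1 did not pass the filter on low counts between the muscle gates. The counts are therefore a description and are not read against these shares.

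Among the proteins that act on acetylcholine or anchor the synapse, ACHE, the enzyme that breaks acetylcholine down, was higher in myocytes than in myoblasts by 7.47 ± 0.52 (adjusted p = 6.9e-10). It stood at 20.8 and 3.19 CPM at E18, from 6 and 1 UMIs, at 193 and 124 at E21, and at 207 and 327 at E28. In myoblasts it stood at 2.35 and 1.42 CPM at E21 and no higher than 1.30 at E28. In E18-DZ, the only E18 library with a sum for both gates, ACHE stood at 6.63 in myoblasts from 1 UMI, above the myocytes. Neurons also held ACHE, at a mean of 79.0 CPM (37.9 to 147, n = 6) from 918 UMIs. The myocyte mean was 146, from 848 UMIs. COLQ, which tethers ACHE to the matrix, was higher by 4.87 ± 0.48 (adjusted p = 8.9e-08), from 70 UMIs in myocytes. Of these, 15 came from E28-ZZ, 44 from E28-DZ and 1 from each E18 library. In E21-DZ COLQ stood at 2.46 CPM in myocytes, 0.709 in myoblasts and 2.14 in other cells. Its change from MYF5+ progenitors to myoblasts was −2.46 ± 0.54 (edgeR, adjusted p = 0.0045). CAV3, the caveolin of muscle membranes, rose by 7.53 ± 0.23, and SNTB1 and DTNA, of the dystrophin complex, by 3.55 ± 0.35 and 1.76 ± 0.20. In E18-DZ, however, SNTB1 stood at 33.15 CPM in myoblasts, from 5 UMIs, and at 28.7 in myocytes, from 9. Its mean in neural crest or glia, 83.8 CPM, was above the 37.5 of myocytes. ERBB2, the co-receptor that pairs with neuregulin receptors, rose by 2.56 ± 0.22, and ETV4, an ETS factor, fell by 2.74 ± 0.52, from only 6 UMIs in myocytes and 0 in 4 of the 6 libraries.

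Of the genes that act upstream of MUSK, AGRN, the gene of agrin, fell from myoblasts to myocytes by 1.78 ± 0.35 (adjusted p = 0.00044), to 7.73 ± 4.55 CPM (SD, n = 6) beside 63.8 ± 21.5 in other cells (n = 8). In E18-DZ, however, AGRN stood at 12.8 CPM in myocytes, from 4 UMIs, and at 6.63 in myoblasts, from 1 UMI. LRP4 gave 0.98 ± 0.57 (adjusted p = 0.19), from 19 UMIs in myocytes. DOK7 was higher than in other cells by 2.22 ± 0.79 (adjusted p = 0.041), from only 7 UMIs in myocytes, and was too low to test against myoblasts. RAPSN, the gene of rapsyn, was not analysed here.

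Genes that fold and assemble receptors were described from a list of 6. Of these (RIC3, TMEM35A, UNC50, CANX, PDIA4 and HSPA5), 0 were higher and 1 lower in myocytes than in other cells, UNC50 at −0.56 (adjusted p = 0.046), where 24.5% of all genes were lower. None of 5 tested was called by edgeR in either step between muscle gates.

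Over the 87 sums of a gate in a library, CHRNA1 and MUSK were alike in pattern, with a Pearson r of 0.92 for log2(CPM + 1). As a description, the named genes most like CHRNA1 among 14199 were ATP2A1 (0.94), the calcium pump of fast fibres, HJV (0.92) and COL19A1 (0.92), and those most like MUSK were COL19A1 (0.95) and JSRP1 (0.93). CHRNB1 had r of 0.40 with CHRNA1 and 0.49 with MUSK, and was most like ARL6IP5 (0.79), SH3PXD2A (0.77), ARID5B (0.77), OBSL1 (0.76) and DYRK2 (0.75). The sums share libraries and depth.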

How the data were processed

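The authors prepared 10x Chromium 3′ version 3 libraries and deposited UMI counts, whole numbers without normalization, made with Cell Ranger on Sscrofa11.1 and Ensembl release 98 (versions from the submitters' processing notes and the matrices). From these counts, barcodes with under 200 genes, over 30000 UMIs or over 10% mitochondrial UMIs were removed, then those with the highest Scrublet scores (scanpy 1.11.5), at 0.8% per 1000 barcodes. UMIs were summed per gate and library, with at least 20 cells per sum. The 11 other classes rest on further markers, and cells in more than 1 class were left out of them. Levels are CPM, UMIs per 1000000 UMIs of the sum, with no other scaling.

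Sums were tested with edgeR 4.0.16 in R 4.3.3 (quasi-likelihood test, TMM, filterByExpr, Benjamini-Hochberg over all genes, threshold 0.05), with the library as a block between gates and stage and breed as terms otherwise. The fit of late against early libraries had breed but no further term for stage. Its spread therefore includes changes between the stages within each group. The code was tested on simulated data. Alternatives were other normalization, filters, DESeq2 1.42.0, other cell limits and gates, and left-out libraries. Per-cell shares cover counting error only, and a count of 0 allows 3. Promoters came from RefSeq, Sscrofa11.1.

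The members and gene lists were chosen with earlier results of these data known. Genes named from a list were the called ones with the largest change from myoblasts to myocytes, at most 8 for the synapse list and 4 for the others, plus AGRN, LRP4, DOK7 and RAPSN. The likeness rule took the 5 highest r among genes with at least 50 UMIs.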

Additional observations from a re-analysis of the deposited data

Results flagged for a closer look

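Of 22 groups of samples checked for a library standing apart, 5 had one. Chance gives about 1 in 20, but 2 of the 5 rest on a single UMI with the other libraries at 0, which stands apart by construction, so the count is not read against chance. In whole late libraries CHRNA1 stood at 43.2 CPM in E28-DZ and at 12.8 to 16.8 in the other 3. In committed myoblasts CHRNB1 stood at 0 in E18-DZ, of 150828 UMIs, where a count of 0 allows up to 19.9 CPM, and at 34.7 to 48.0 in the other 4. E28-DZ also held the highest myocyte values of CHRNE, at 6.56 CPM against 0 to 1.34, and of CHRNG, at 0.729 against 0, the latter from 1 UMI. In MYF5+ progenitors CHRNE was at 0.337 in E28-DZ, also from 1 UMI, and at 0 in the other 7 libraries. E28-DZ had the most myocytes, 153, and the highest share of cells in that gate, 1.40%. It also had the most committed myoblasts, 1186, against 689 in E28-ZZ, 237 in E21-ZZ and 210 in E21-DZ. The part of these cell numbers in the values above was not tested.

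The difference of CHRNB1 between myocytes and other cells changed between stages, by −1.46 ± 0.31 on the log2 scale at E28 against E18 and E21 (edgeR, adjusted p = 0.0050), a comparison added after values had been seen. The call was lost without E28-ZZ (adjusted p = 0.11) and without E28-DZ (0.42). The levels behind it are 91.3 and 85.3 CPM in E28 myocytes and 53.1 and 80.2 in E28 other cells.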

How the results depend on the processing

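No paired analysis was possible because each group of stage and breed has only 1 replicate number, where pairing means by that number. The fits were paired in another way, with the library as a block between gates and the stage as a term between breeds. CHRNA1, MUSK and CHRNB1 kept their direction and call in myocytes against other cells and against committed myoblasts under all 16 alternatives. In myocytes against other cells CHRNA1 ranged from 8.72 to 9.10, MUSK from 7.39 to 7.95 and CHRNB1 from 1.47 to 1.99. The number of members called fell from 2 to 1 in myoblasts against MYF5+ progenitors (DESeq2, a 5% mitochondrial limit, a looser gate, no library block, and 1 to 2 without a library) and in MYOG+ against MYOD1-only myoblasts (DESeq2, no library block, and 1 to 2 without a library). It fell from 2 to 1 in E21 against E18 (DESeq2, and 1 to 2 without a library). In late against early libraries it fell from 3 to 1 without both E28 libraries, and was 1 to 3 without 1 library. The interaction call of CHRNB1 was 0 to 1 without 1 library. The causes were not tested. Without thinning, CHRNA1 was found in 86.4%, 30.5% and 4.05% of myocytes, myoblasts and MYF5+ progenitors, MUSK in 48.7%, 9.72% and 5.34%, and CHRNB1 in 40.4%, 19.7% and 12.8%. The late minus early share of myocytes was 0.707 to 0.942 points without 1 library, 1.29 under a looser gate, 0.653 under a stricter one and 1.08 under the 5% mitochondrial limit, where the early mean was 0.0893%.

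None of the values that changed sign had passed the test. CHRNA1 at E28 against E21 in myocytes was −0.080 under a looser gate, and −0.24 (without E21-DZ) to 0.61 without 1 library. Between breeds in whole libraries CHRNE was −0.44 with DESeq2 and −1.82 (without E28-DZ) to 0.95 without 1 library. MUSK there was 0.13 when doublets were kept, 0.041 under the 5% mitochondrial limit and −0.17 to 0.074 (without E16-DZ) without 1 library, and CHRNB1 −0.060 (without E28-DZ) to 0.16. In the interaction CHRNE was −1.60 with DESeq2, and CHRNA1 −1.08 to 0.037 (without E28-DZ).

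Counts of genes called moved by over 1.5 times as follows. Without the library block, myocytes against myoblasts gave 2365 against 3835, myoblasts against MYF5+ progenitors 325 against 1046 (86.5% higher against 60.6%) and the MYOG split 319 against 1873 (73.7% against 53.2%). DESeq2 gave 39 against 256 for E28 and 297 against 828 for E21 in myocytes (76.1% higher against 60.9%), 3 against 27 between breeds in myocytes, 780 in the MYOG split (66.4% higher), 2653 against 1643 in other cells, 366 against 924 in fibroblasts and 289 against 435 in the interaction. With no filter on low counts these were 41 between breeds in myocytes, 1660 in fibroblasts and 727 in the interaction, and with a stricter gate 14 between breeds. Late against early gave 2977 without E16-DZ, 1319 without E16 and 2565 without E28, against 5073. Without 1 library the counts were as low as 601, 115, 322, 899, 641 and 320 in myoblasts against progenitors, E28, E21, the MYOG split, other cells and fibroblasts, and 39 to 800 in the interaction. They were as high as 68 between breeds in myocytes and 1834 in fibroblasts. Between breeds in whole libraries, 1 gene was called with no filter and 1 with doublets kept, against 0. At the 5% mitochondrial limit both E18 myocyte sums fell below 20 cells and were not used.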

Other observations

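Genes of nicotinic subunits known from neurons were also counted in muscle cells. Of 11 listed, 9 had a row by symbol, and 6 were tested in myocytes against other cells. Of these 3 were higher and 2 lower, beside 14.5% higher and 24.5% lower of all genes. CHRNA2, CHRNA9 and CHRNA10, with 0 UMIs in myocytes and 1 to 27 in other cells, did not pass the filter on low counts. The counts are therefore not read against these shares. CHRNB3 was the only listed gene tested against committed myoblasts and was higher in myocytes by 2.17 ± 0.56 (edgeR, adjusted p = 0.0044). It stood at 48.6 and 9.56 CPM in the E18 myocytes, 25.4 and 2.46 at E21, and 1.34 and 2.92 at E28 (ZZ before DZ), from 42 UMIs in all, 14 of them in E18-ZZ and 18 in E21-ZZ. No CHRNB3 UMI was found in the neuron gate. The remaining genes were picked after their values were seen. CHRNA5 and CHRNA6 were higher than in other cells by 3.71 ± 0.73 and 3.02 ± 0.83, each from 11 UMIs in myocytes. Both were at 0 in the E18 myocytes of either breed, and 8 of the CHRNA6 UMIs came from E28-DZ. In E21-ZZ CHRNA6 was at 1.41 CPM in myocytes and 1.43 in other cells. Neither gene had its highest mean in myocytes. CHRNA5 was at 2.70 ± 2.62 CPM in committed myoblasts (SD, n = 5) and 1.94 ± 2.14 in myocytes (n = 6). CHRNA6 was at 2.08 ± 2.84 in neurons (n = 6), 1.87 ± 1.81 in neural crest or glia (n = 8) and 1.64 ± 2.16 in myocytes (n = 6). CHRNA4 and CHRNB2, at 45.3 ± 38.0 and 33.6 ± 10.5 CPM in neurons (SD, n = 6), had no UMI in myocytes.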
